A study of Mus musculus with 2 samples.

Results

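Hepatic stellate cells (HSCs) in which a transcript of Cdkn2a was counted were compared with HSCs of the same library and of similar depth in which none was. An HSC was taken as a barcode with at most 5% mitochondrial UMIs (unique molecular identifiers, 1 per captured transcript), 2000 to 7000 genes, at most 50000 UMIs, and at least 15 UMIs per 10000 from Lrat, Ecm1, Hgf and Reln together, 4 genes that mark HSCs. A Cdkn2a cell was an HSC with at least 1 Cdkn2a UMI. Cells were thus chosen by their counts of Cdkn2a and of the gate genes, and values of these 5 genes are given as a description. There were 1294 Cdkn2a cells among 14929 HSCs and 19955 barcodes. The p16-LRTD library held 758 of them among 8092 HSCs, and the p16-Alb-LRTD library held 536 among 6837.

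Both libraries came from livers of male mice on a C57BL/6 background that were given carbon tetrachloride (CCl4), a hepatotoxin that causes fibrosis, for 4 weeks, together with tamoxifen and diphtheria toxin. Both genotypes carried p16-CreERT2, in which the p16 promoter drives a tamoxifen-inducible Cre, and the allele R26-CAG-LSL-RSR-tdTomato-2A-DTR, which makes tdTomato and the diphtheria toxin receptor once both of its stop cassettes have been cut, 1 by Cre and 1 by Dre. The p16-Alb-LRTD mice also carried Alb-DreERT2, a Dre driven by the hepatocyte gene albumin, so that hepatocytes with p16 expression could be eliminated by the toxin, while the p16-LRTD mice lacked Dre and kept these cells. HSCs were not the target of the elimination in either genotype. There was 1 library per genotype. The age of the mice and the number of mice per library were not given in the sources used here, so no p-value for a difference between genotypes was possible.

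Cdkn2a encodes a pair of unrelated proteins that both restrain division. p16Ink4a blocks the cyclin D kinases CDK4 and CDK6 and so keeps RB active, and p19Arf blocks MDM2 and so stabilises p53. The gene is held silent by Polycomb complexes in most tissues, and its transcript is widely used as a mark of cellular senescence, a lasting exit from the cell cycle that often comes with secretion of cytokines and proteases. Active RB represses the genes that E2F factors drive in S phase.

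Cdkn2a lies on the minus strand of chromosome 4 from 89274471 to 89294653 (GRCm38, GENCODE vM21). The transcript for p19Arf starts in an exon at 89294334 to 89294653 and the transcript for p16Ink4a in an exon at 89281986 to 89282192. Both continue into exon 2, at 89276645 to 89276985, and into the last exon. They share 575 bases, 67.5% of the p16Ink4a transcript and 64.2% of the p19Arf transcript. The libraries were counted from the 3′ end, which the transcripts have in common, so a Cdkn2a UMI could not be assigned to p16Ink4a or p19Arf.

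The 250 bases before each start are shown because the gene has separate promoters whose products the counts merge, and those of Top2a and Cdk1 because cell division genes were the group that differed most between Cdkn2a cells and matched cells. The sequences are from RefSeq on GRCm38.p6, all on the minus strand and written 5′ to 3′. They lie at chr4:89282193-89282442 for the p16Ink4a start, chr4:89294620-89294869 for the p19Arf start as RefSeq places it, at 89294619, chr11:99024190-99024439 for Top2a and chr10:69352913-69353162 for Cdk1. Capitals mark the CCAAT box (CCAAT), the cell cycle homology region (TTTGAA) and E2F sites (TTTGGCGC or TTTCCCGC), searched on both strands.
p16Ink4a start: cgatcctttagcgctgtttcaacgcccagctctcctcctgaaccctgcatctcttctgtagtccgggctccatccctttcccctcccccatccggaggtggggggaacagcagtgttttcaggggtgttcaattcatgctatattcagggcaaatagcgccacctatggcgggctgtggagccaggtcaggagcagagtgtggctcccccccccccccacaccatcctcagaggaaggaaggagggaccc
p19Arf start: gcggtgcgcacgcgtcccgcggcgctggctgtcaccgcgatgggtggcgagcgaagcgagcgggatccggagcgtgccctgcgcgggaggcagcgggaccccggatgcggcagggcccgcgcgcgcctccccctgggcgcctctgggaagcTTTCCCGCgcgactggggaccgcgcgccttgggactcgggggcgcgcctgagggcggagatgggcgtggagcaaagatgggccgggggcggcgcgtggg
Top2a: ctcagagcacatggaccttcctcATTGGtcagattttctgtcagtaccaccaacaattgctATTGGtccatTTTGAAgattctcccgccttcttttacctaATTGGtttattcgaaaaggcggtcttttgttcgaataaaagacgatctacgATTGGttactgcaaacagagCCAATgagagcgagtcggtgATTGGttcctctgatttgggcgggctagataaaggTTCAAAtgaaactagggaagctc
Cdk1: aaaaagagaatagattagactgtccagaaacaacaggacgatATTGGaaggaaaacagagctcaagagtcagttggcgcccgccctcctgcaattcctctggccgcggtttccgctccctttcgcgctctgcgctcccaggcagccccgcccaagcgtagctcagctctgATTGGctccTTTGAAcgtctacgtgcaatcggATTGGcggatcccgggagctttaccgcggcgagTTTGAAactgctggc
The window before the p16Ink4a start held 0 matches and that before the p19Arf start held 1, an E2F match 99 bases before the RefSeq start. The GENCODE p19Arf start lies 34 bases upstream of the RefSeq one, so the last 34 bases of that window belong to the first exon in GENCODE, while the p16Ink4a start is at 89282192 in both. The Top2a window held 8 matches and the Cdk1 window 5, all of them CCAAT boxes or cell cycle homology regions. Promoters of 14 of the 17 genes of the cell division list were in the table. A CCAAT box was present in 12 of these 14, against 33.8% of all 32851 promoters, and a cell cycle homology region in 6, against 15.99%. An E2F match was present in 0 of the 14 and in 1.30% of all. A match is a string of letters in the window and was not tested as a binding site.

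The whole series comprised 193746596 UMIs in p16-LRTD and 162219167 in p16-Alb-LRTD, and 9004 and 7416 barcodes passed the quality limits. The libraries shared 95 barcode sequences, of which 14 were HSCs in both and 0 were Cdkn2a cells in both. Cdkn2a cells had a median of 76.3 gate UMIs per 10000 in p16-LRTD and 93.3 in p16-Alb-LRTD, against 83.7 and 95.4 in the matched cells described below. Close to the gate, 11 and 7 Cdkn2a cells had 15 to 25 per 10000, while 34 and 17 barcodes with a Cdkn2a UMI were left out at 5 to 15. Dcn, a proteoglycan of HSCs, stood at 16258 and 20420 CPM (counts scaled to a common total) in the Cdkn2a cells of p16-LRTD and p16-Alb-LRTD, so that HSC markers were abundant in both.

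Among the HSCs, 9.37% (95% Clopper-Pearson interval 8.74 to 10.0) had a Cdkn2a UMI in p16-LRTD and 7.84% (7.21 to 8.50) in p16-Alb-LRTD. Most Cdkn2a cells held a single UMI of the gene. In p16-LRTD 608 cells had 1, 125 had 2, 14 had 3, 10 had 4 and 1 had 5. In p16-Alb-LRTD 466 cells had 1, 61 had 2, 7 had 3 and 2 had 4. These intervals, and those below, cover counting error and not the spread between mice.

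A share of cells with a UMI follows depth, and it did so here. Across 5 equal bins of the HSCs by total UMIs, the share went from 5.06% in the shallowest bin, with a median of 10927 UMIs, to 17.3% in the deepest, with 27539, in p16-LRTD. The corresponding values in p16-Alb-LRTD were 4.83% at 12395 UMIs and 11.8% at 27199. The level per UMI was flatter. In p16-LRTD it was 5.69, 5.52, 5.38 and 5.61 CPM in the first 4 bins and 8.14 CPM (7.34 to 8.998) in the deepest. In p16-Alb-LRTD it lay between 4.47 and 4.92 CPM in all 5. The deepest bin of p16-LRTD also held 106 of the 142 cycling HSCs of that library, defined below, and stood at 6.36 CPM without them.

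**Figure D1:**
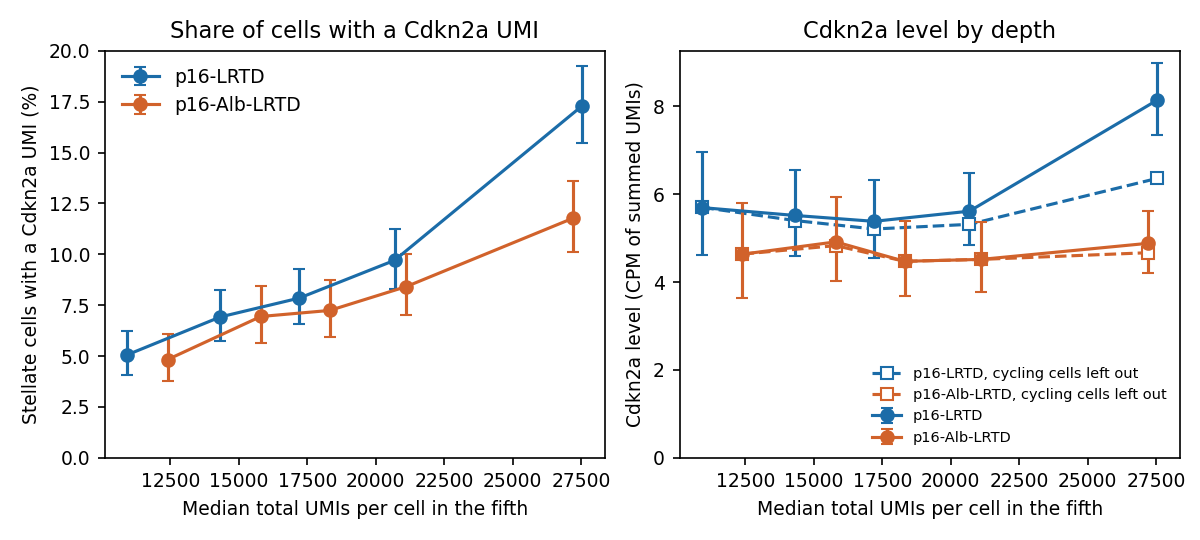
Share of HSCs with a Cdkn2a UMI (left, percent, 95% Clopper-Pearson bars) and Cdkn2a level in CPM of summed UMIs (right, 95% Poisson bars), by bin of total UMIs per cell (5 equal bins a library), with the median UMIs of each bin on the horizontal axis and 1 line per library. The share rises with depth in both libraries, from 5.06% to 17.3% in p16-LRTD, while the level stays between 4.47 and 5.69 CPM except in the deepest p16-LRTD bin, at 8.14 CPM, or 6.36 CPM without cycling cells (open squares).

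Depth was therefore matched. For each Cdkn2a cell, 3 HSCs of the same library without a Cdkn2a UMI and with the nearest total UMIs were taken, 2274 in p16-LRTD and 1608 in p16-Alb-LRTD. The median depth was 20112 UMIs in Cdkn2a cells and 20114 in matched cells of p16-LRTD, against 16912 in all HSCs without a Cdkn2a UMI. In p16-Alb-LRTD the medians were 19868, 19869 and 18188. Total UMIs differed by 100 or less in 89.5% of pairs in p16-LRTD and 95.6% in p16-Alb-LRTD. They differed by more than 1000 in 137 and 6 pairs, with largest gaps of 3226 and 5039. The median number of genes was 5128 against 5074 in p16-LRTD and 4995 against 4962 in p16-Alb-LRTD.

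Cycling HSCs held a Cdkn2a UMI more often than other HSCs. Cycling was taken as at least 10 UMIs per 10000 from the 17 genes of the cell division list. In p16-LRTD, 76 of 142 cycling HSCs, 53.5% (45.0 to 61.9), had a Cdkn2a UMI, against 8.58% (7.97 to 9.22) of the 7950 that were not cycling. In p16-Alb-LRTD it was 7 of 13, 53.8% (25.1 to 80.8), against 7.75% (7.13 to 8.41) of 6824. Cycling cells were deeper, with a median of 28264 UMIs in p16-LRTD and 29920 in p16-Alb-LRTD. Thinned to 5000 UMIs per cell, the expected share was 14.1% in cycling cells of both libraries, with intervals of 8.79 to 20.9 and 1.52 to 44.0, and 2.64% (2.29 to 3.01) and 2.22% (1.88 to 2.60) in the others. Thinning left out 16 and 7 shallower HSCs, none of them cycling. HSCs with Kupffer genes, at least 15 UMIs per 10000, also had a high share, 28.3% of 53 cells and 37.5% of 16, or 7.62% (2.13 to 18.3) and 11.1% (1.13 to 36.7) when thinned, intervals that overlapped those of cycling cells in both libraries. In p16-LRTD the Cdkn2a level was 31.3 CPM (26.1 to 37.3) in cycling cells and 5.67 CPM in the others. For p16-Alb-LRTD these values were 31.6 CPM (16.3 to 55.1) and 4.62 CPM.

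Seen from the Cdkn2a cells, 76 of 758 (10.0%, 7.98 to 12.4) were cycling in p16-LRTD, against 36 of the 2274 matched cells (1.58%, 1.11 to 2.19). In p16-Alb-LRTD, 7 of 536 (1.31%, 0.527 to 2.67) were cycling against 3 of 1608 (0.187%, 0.0385 to 0.544). The intervals did not overlap in p16-LRTD and overlapped at the edge in p16-Alb-LRTD. The limit of 10 per 10000 had few cells near it. Between 5 and 20 per 10000 there were 24 Cdkn2a cells and 17 matched cells in p16-LRTD, and 0 and 4 in p16-Alb-LRTD.

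The cycling share was higher with more Cdkn2a UMIs. In p16-LRTD it was 0.8999% of cells with no Cdkn2a UMI, 6.91% with 1, 18.4% with 2 and 44.0% (11 of 25, 24.4 to 65.1) with 3 or more. In p16-Alb-LRTD it was 0.0952%, 0.858%, 3.28% and 11.1%, the last being 1 of 9 cells. Depth moved with this order, since the median was 16912, 19568, 22211 and 33162 UMIs in p16-LRTD and 18188, 19770, 20339 and 21452 in p16-Alb-LRTD, and its part was not tested here. Barcodes with at least 15 Kupffer UMIs per 10000 moved with it too, at 0.518%, 1.32% and 3.20% of cells and then 3 of 25 cells in p16-LRTD, and at 0.159%, 0.858% and 3.28% and then 0 of 9 cells in p16-Alb-LRTD.

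**Figure D2:**
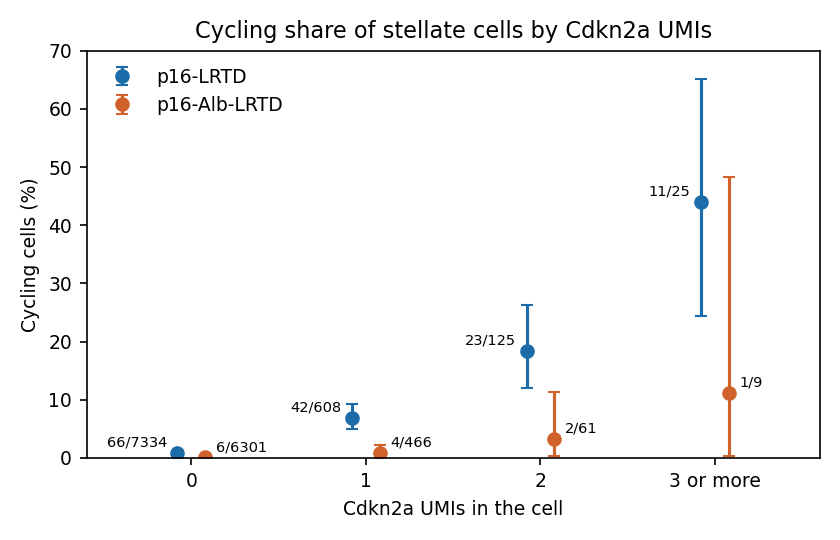
Percent of HSCs that were cycling (vertical axis, 95% Clopper-Pearson bars, cells counted over cells in all beside each point) by the number of Cdkn2a UMIs in the cell (horizontal axis), 1 colour per library. In p16-LRTD the points climb from 0.8999% to 44.0%, and in p16-Alb-LRTD from 0.0952% to 11.1% with wide bars.

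The transcriptomes were then compared by summing UMIs over the Cdkn2a cells and over the matched cells of each library and testing the 4 sums with edgeR's quasi-likelihood test, with library as a term. Cdkn2a and the 4 gate genes were left out. Of 10401 genes with a mean of at least 5 CPM, 300 were higher in Cdkn2a cells at a Benjamini-Hochberg adjusted p under 0.05, 2.88% of those tested, and 63 were lower, 0.606%, so that 3.49% were called in either direction. The median log2 ratio over all genes was -0.01. With 1 residual degree of freedom per gene, the p-values rest on how alike the ratio was in the 2 libraries and on spread shared across genes. The count moved both ways with other tools, filters and gates. It was 95 higher and 17 lower by DESeq2, 382 and 132 with the HSC gate at 10 per 10000, and 477 and 110 with no filter, and the lower calls went to 0 without the upper limits on genes and UMIs (1099 genes in either direction at an unadjusted p under 0.05).

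Cell division genes were higher in Cdkn2a cells. Of the list of 17, 16 were tested and 16 were called higher, with a median log2 ratio of 2.50, while 2.88% of all genes were called higher. The filter took part in this count, since 9 of the 16 had a mean of at least 5 CPM in the matched cells by themselves, and the other 7 passed it only through the Cdkn2a cells, in which they were high. Bub1, a spindle checkpoint kinase, was under the filter. The summed level of the list was 991 CPM in Cdkn2a cells and 194 CPM in matched cells of p16-LRTD, and 157 and 29.5 CPM in p16-Alb-LRTD.

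Top2a, the topoisomerase that untangles sister chromatids, was at 138 CPM in Cdkn2a cells and 22.5 CPM in matched cells of p16-LRTD, and at 22.2 and 1.54 CPM in p16-Alb-LRTD. Cdkn2a cells were above matched cells in both libraries, by a fitted log2 ratio of 2.77 ± 0.12 (SE, edgeR adjusted p = 1.2e-12). Mki67, whose protein coats mitotic chromosomes, was at 64.3 against 11.9 CPM in p16-LRTD and 9.73 against 1.77 CPM in p16-Alb-LRTD. Cdk1, the kinase that drives entry into mitosis, was at 112 against 28.6 CPM and 30.9 against 14.2 CPM, the smallest ratio of the list (log2 1.66 ± 0.11). It was also found in many cells outside division, with a UMI in 29.8% of Cdkn2a cells and 22.8% of matched cells of p16-LRTD. In p16-Alb-LRTD the division genes came from a handful of cells. There the 5 highest cells gave 85.9% of the Top2a UMIs of Cdkn2a cells and 89.3% of those of Cenpf, a kinetochore protein, against 15% and 20.3% in p16-LRTD.

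Of the 12 largest ratios among genes that passed the naming rule, 6 were of genes in the cell division list and 6 of genes in no list. They were Knl1 (log2 2.99), Top2a, Cenpf (2.72), Ccnb1 (2.71), Pimreg (2.67), Ckap2 (2.67), Pclaf (2.63), Prc1 (2.61), Hmmr (2.59), Ckap2l (2.56), Ube2c (2.55) and Tpx2 (2.53), with standard errors of 0.12 to 0.24. Knl1, Ccnb1, Pimreg, Pclaf, Hmmr and Ckap2l were under 5 CPM on average in matched cells and passed the filter only through the Cdkn2a cells, so the choice of these 6 was favoured by the filter. Knl1 builds the kinetochore, Ccnb1 is the mitotic cyclin B1, Pclaf binds PCNA, Prc1 bundles the central spindle, and Ube2c and Tpx2 act in mitotic ubiquitination and spindle assembly. In p16-Alb-LRTD matched cells Ccnb1 and Ube2c were counted 2 and 5 times, so their ratios there have wide intervals (log2 4.42 to 9.42 and 4.72 to 7.64).

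DNA replication genes were higher to a smaller extent. Of 20, 12 were tested and 9 were higher, with a median log2 ratio of 0.53, while 2.88% of all genes were called higher. Of the 9, Uhrf1 and Tk1 passed the filter only through the Cdkn2a cells. Tk1, the S-phase thymidine kinase, was at 29.8 against 5.2 CPM in p16-LRTD and 5.6 against 1.7 CPM in p16-Alb-LRTD (log2 2.25 ± 0.16). Pcna, the sliding clamp of the replication fork, was at 46.5 against 28.7 CPM in p16-LRTD but 32.7 against 32.2 CPM in p16-Alb-LRTD, with a fitted log2 ratio of 0.37 ± 0.10 and an edgeR adjusted p of 0.036. Mcm2, Mcm6 and Hells did not pass the test, at log2 0.43, 0.43 and 0.50. The list's median was 0.86 in p16-LRTD and 0.22 in p16-Alb-LRTD, and the difference between the libraries was not tested.

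When cycling cells were left out of both sets and the rest matched again, 682 and 529 Cdkn2a cells remained. Then 169 genes were higher (1.64% of 10317) and 55 lower (0.533%). In this fit the spread of each gene was taken wholly from the spread shared across genes. How alike its own ratio was in the 2 libraries did not enter that spread. Of the cell division genes Cdk1 alone was left above the filter and it did not pass the test, and 0 of 10 DNA replication genes were higher. Cycling cells were defined by the cell division list, so its fall follows in part from the choice of cells. Its summed level was then 57.5 against 32.4 CPM in p16-LRTD and 28.1 against 25.5 CPM in p16-Alb-LRTD, and that of the DNA replication list 232 against 181 CPM and 163 against 160 CPM. None of the 12 named genes above stayed over the filter of 5 CPM. Top2a fell under it at 4.68 CPM in Cdkn2a cells and 1.75 CPM in matched cells of p16-LRTD, and at 0.708 and 0.945 CPM in p16-Alb-LRTD. Stmn1, a microtubule regulator of dividing cells, was still higher, at 45.2 against 20.6 CPM and 11.2 against 9.01 CPM (log2 0.86 ± 0.09).

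**Figure D3:**
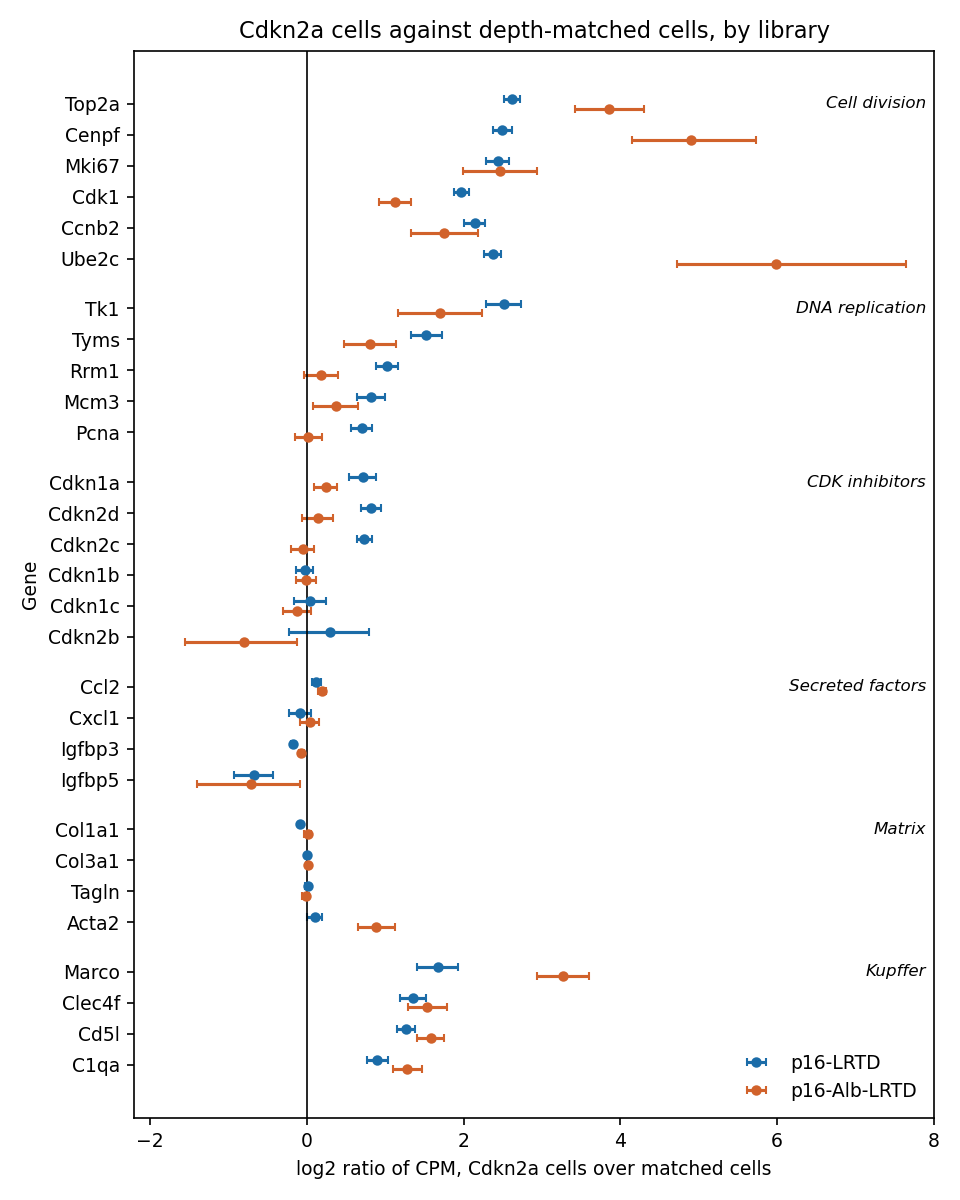
Log2 ratio of CPM, Cdkn2a cells over matched cells (horizontal axis), for genes of 6 groups (vertical axis), 1 colour per library, with 95% exact conditional intervals for counting error. Cell division genes lie far to the right in both libraries (Top2a 2.62 and 3.85), the CDK inhibitors Cdkn2c and Cdkn2d lie right of 0 in p16-LRTD and near 0 in p16-Alb-LRTD, secreted and matrix genes lie near 0 apart from Igfbp5 and Acta2, and Kupffer genes lie to the right.

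Of 17 tested regulators of G1, the stage that p16Ink4a acts on, 4 were higher and 0 lower, while 2.88% of all genes were called higher. The list's median log2 ratio was 0.01. Cdkn1a, which encodes the CDK inhibitor p21 and is a p53 target, was at 27.4 against 16.8 CPM in p16-LRTD and 47.4 against 40.1 CPM in p16-Alb-LRTD (log2 0.43 ± 0.09, edgeR adjusted p = 0.0031). It was higher in both libraries. Cdkn2d and Cdkn2c, which encode the p16-related inhibitors p19Ink4d and p18Ink4c, were at 48.1 against 27.1 and 91.2 against 54.8 CPM in p16-LRTD, and at 24.4 against 22.2 and 42.8 against 44.4 CPM in p16-Alb-LRTD. Their fitted log2 ratios of 0.52 and 0.39 passed the test, although Cdkn2c was not higher in p16-Alb-LRTD. The RB relative Rbl1 was the fourth, at log2 0.54. Without cycling cells 0 of the 17 passed the test, and Cdkn1a was at 16.6 against 15.7 CPM and 39.7 against 38.6 CPM (adjusted p = 0.94).

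The targets of p16Ink4a and their partners did not pass the test. Cdk4 was at 98.4 against 89.0 CPM in p16-LRTD and 70.5 against 72.0 CPM in p16-Alb-LRTD, Cdk6 at 152 against 149 and 141 against 145 CPM, and Rb1 at 35.5 against 34.7 and 40.6 against 39.4 CPM. Ccnd2, a D cyclin, was at 331 against 368 and 364 against 387 CPM, with an adjusted p of 0.052.

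The neighbours of Cdkn2a were compared next. Cdkn2b, the p15 gene at chr4:89306299-89311039, beside Cdkn2a, was under the filter, at 2.89 against 2.37 CPM in p16-LRTD and 1.83 against 3.19 CPM in p16-Alb-LRTD, with intervals of the log2 ratio from -0.23 to 0.79 and from -1.55 to -0.12. Mtap, an enzyme of methionine salvage on the other side of the locus, was at 27.0 against 26.2 CPM and 22.5 against 25.0 CPM (adjusted p = 0.78). A tdTomato UMI, from the allele that needs both recombinases, was found in 5.01% of Cdkn2a cells and 5.80% of matched cells of p16-LRTD, and in 10.6% and 11.1% in p16-Alb-LRTD. Within each library the intervals overlapped. The p16-LRTD mice carry no Dre, and the source of the tdTomato UMIs was not tested.

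The p53 targets gave 1 higher and 1 lower call of 16 tested, against 2.88% higher and 0.606% lower among all genes. Their median log2 ratio was 0.01. The higher one was Cdkn1a. The lower one was Btg2, an antiproliferative early response gene, at 261 against 311 CPM in p16-LRTD and 452 against 502 CPM in p16-Alb-LRTD (log2 -0.23 ± 0.04). Bax and Mdm2, the death effector and the p53 ligase, were at log2 0.00 and -0.03 with standard errors of 0.04 and 0.06. Aen, an apoptotic nuclease, was at 20.4 against 17.1 and 29.6 against 23.6 CPM, with an adjusted p of 0.094.

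Of the secreted factors linked to senescence, 15 of 25 were tested, 0 were higher and 2 were lower, with a median log2 ratio of -0.05. Over all genes 2.88% were higher and 0.606% lower. Igfbp5, an IGF-binding protein and 1 of the 2, was at 9.5 against 15.3 CPM and 2.2 against 3.6 CPM (log2 -0.72 ± 0.15), and 44.9% and 64.0% of its UMIs came from the 5 highest Cdkn2a cells. The chemokine Ccl2 was at 221 against 203 CPM and 379 against 332 CPM (adjusted p = 0.12), and Cxcl1 at 32.4 against 34.3 and 60.1 against 58.7 CPM. Il6 was counted 8 times in the Cdkn2a cells and 24 times in the matched cells of p16-LRTD, and 1 and 17 times in p16-Alb-LRTD, too few for the test. Without cycling cells the cytokine Il1a (log2 0.47) and Ccl2 (log2 0.18) were higher and Igfbp5 (log2 -0.53) was lower. Il1a UMIs sat in few cells, 42.7% and 51.3% of them in the 5 highest Cdkn2a cells of the full set. With the tenth of cells highest in markers of other cell types left out, Il1a was counted 0 times in Cdkn2a cells against 15 in matched cells of p16-LRTD. In p16-Alb-LRTD it was 3 against 12. With cycling cells left out as well, 0 of the 14 secreted factors tested passed. Ccl2 was then at log2 0.23 in p16-LRTD and -0.02 in p16-Alb-LRTD (edgeR adjusted p = 0.36).

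Among 13 other genes linked to senescence, 5 were higher, against 2.88% of all genes, and 0 lower. They were Lmnb1 (log2 1.59), Hmgb2 (1.14), Ezh2 (0.69), Suz12 (0.23) and Hmgb1 (0.18). Lmnb1, Hmgb1 and Hmgb2 encode lamin B1 and chromatin proteins that are known to decline in senescent cells, and Ezh2 and Suz12 encode Polycomb subunits known to repress Cdkn2a. Lmnb1 was at 64.9 against 16.2 CPM in p16-LRTD and 16.3 against 8.8 CPM in p16-Alb-LRTD. Without cycling cells it was at 11.9 against 7.95 and 7.70 against 8.06 CPM with an adjusted p of 0.44, and of the 5 Hmgb2 alone passed the test (log2 0.18 ± 0.05), while Id1, an inhibitor of differentiation factors in the same list, was lower (log2 -0.24 ± 0.06). With the tenth of HSCs highest in markers of other cell types left out, Lmnb1 alone of the 5 passed (adjusted p = 0.011). The others had adjusted p-values of 0.12 to 0.50 there, at log2 ratios of 1.14, 0.70, 0.22 and 0.19 for Hmgb2, Ezh2, Suz12 and Hmgb1. Glb1, the gene of senescence-associated beta-galactosidase, was at 47.0 against 47.4 CPM and 43.7 against 41.5 CPM.

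The activation and matrix genes, which mark the collagen-making state of HSCs, were close in level in Cdkn2a cells and matched cells. Of 17 tested, 0 were higher and 1 was lower, Thbs1 (thrombospondin 1, log2 -0.16 ± 0.04), where 2.88% and 0.606% of all genes were called. Without the tenth highest in markers of other cell types Thbs1 no longer passed (log2 -0.18, adjusted p = 0.20). Col1a1, the main chain of type I collagen, was at 2245 against 2375 CPM in p16-LRTD and 518 against 514 CPM in p16-Alb-LRTD. Its fitted log2 ratio was -0.07 ± 0.04 (adjusted p = 0.58). Acta2, smooth muscle actin, was at 66.5 against 62.2 CPM and 21.2 against 11.5 CPM (adjusted p = 0.17), and in p16-Alb-LRTD 77.5% of its UMIs came from 5 Cdkn2a cells. Without cycling cells Acta2 passed the test (log2 0.31 ± 0.06) and Spp1, osteopontin, was lower (log2 -0.50). With the tenth highest in markers of other cell types also left out, Spp1 did not pass (edgeR adjusted p = 0.17). Its log2 ratio was then -0.92 in p16-LRTD and 0.29 in p16-Alb-LRTD. Of 14 quiescence genes tested 0 passed among all members, with a median of -0.10. Without cycling cells 2 were lower, the endothelin receptor Ednrb and the transcription factor Tcf21, both at log2 -0.11.

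Of 15 genes induced by tissue dissociation, 3 were lower and 1 higher, with a median log2 ratio of -0.14, while 0.606% of all genes were called lower. With the tenth of HSCs highest in markers of other cell types left out, 0 of the 15 passed, with the median again at -0.14. The lower ones were Fos, Egr1 and Atf3, immediate early factors, at log2 -0.17, -0.18 and -0.18 with standard errors of 0.04. Fos was at 1242 against 1384 CPM in p16-LRTD and 2017 against 2208 CPM in p16-Alb-LRTD. Hsp90aa1, a chaperone, was the higher one (log2 0.20 ± 0.05).

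Markers of other liver cells moved with the Cdkn2a cells. Of the 11 Kupffer genes, which mark the resident macrophages of the liver, 9 were tested and 9 were higher, with a median log2 ratio of 1.34, Marco passing the filter only through the Cdkn2a cells. The summed level was 315 against 153 CPM in p16-LRTD and 242 against 85.4 CPM in p16-Alb-LRTD. Clec4f, a Kupffer lectin, was at 34.9 against 13.6 CPM and 22.2 against 7.7 CPM, but 60.8% and 85.2% of its UMIs in Cdkn2a cells came from 5 cells, and the share of cells with any Clec4f UMI was 6.20% against 5.98% and 6.34% against 5.85%. Barcodes with at least 15 Kupffer UMIs per 10000 made up 1.98% of Cdkn2a cells (15 of 758) and 0.792% of matched cells in p16-LRTD, and 1.12% (6 of 536) and 0.373% in p16-Alb-LRTD. Of 10 endothelial genes 5 were higher, with a median of 0.26, and without cycling cells 9 were, with a median of 0.49. Their summed level was then 504 against 303 CPM in p16-LRTD and 480 against 421 CPM in p16-Alb-LRTD. Both counts stand against 2.88% and 1.64% of all genes. The higher ones with all members included Cdh5 (VE-cadherin, log2 0.47) and Kdr (VEGF receptor 2, log2 0.32). Barcodes with endothelial genes were 4.09% against 3.08% and 4.48% against 4.17%. The part of these barcodes in calls outside cell division was not tested beyond leaving them out, given below.

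The other lists had few genes over the filter. Over all genes 2.88% were called higher and 0.606% lower. Of the 3 infiltrating macrophage genes tested 1 was higher, over the filter only through the Cdkn2a cells, and 1, Gpnmb, was lower (log2 -1.27 ± 0.19). In the lymphocyte list only Ptprc, shared by all leukocytes, was tested. It was higher (log2 0.67) and passed the filter only through the Cdkn2a cells, while Cd3d, Cd3e and Trbc2 were at 0 in the Cdkn2a cells of both libraries. Alb was higher among 2 hepatocyte genes tested, at 19.5 against 10.98 CPM and 9.0 against 7.7 CPM. Of the portal fibroblast and mesothelial genes 0 of 3 passed, and of the cholangiocyte genes 0 of 1.

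The barcodes outside the HSC gate had higher Cdkn2a shares. Thinned to 5000 UMIs, the expected share was 11.8% (8.39 to 15.998) of 301 barcodes in the Kupffer gate of p16-LRTD and 10.9% (6.89 to 16.2) of 193 in that of p16-Alb-LRTD. In the endothelial gate it was 9.52% (6.88 to 12.8) and 5.68% (3.28 to 9.06), against 2.84% (2.49 to 3.22) and 2.24% (1.90 to 2.62) of HSCs. Unthinned shares were 30.4% and 32.5% in the Kupffer gate and 21.9% and 13.1% in the endothelial gate, at medians of 19971, 25278, 11693 and 11982 UMIs. No class of cells that should lack Cdkn2a was available as a background, and for a single Cdkn2a UMI in an HSC that was not cycling, one of the cell's own and one from free RNA cannot be told apart. The UMIs were not spread evenly over these HSCs. At 1 rate per UMI in all of them, 2 or more Cdkn2a UMIs would fall in 43.8 cells in p16-LRTD, where 116 had them, and in 27.6 cells in p16-Alb-LRTD, where 67 had them. At least 1 would fall in 773 cells in p16-LRTD, where 682 had one, and in 576 in p16-Alb-LRTD, where 529 had one. These HSCs included barcodes with Kupffer or endothelial genes. The counts are a description, and the source of the UMIs was not tested by them.

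Leaving out the tenth of HSCs with the most Kupffer, macrophage, endothelial and lymphocyte UMIs left fewer calls. Of 16 cell division genes tested 16 were higher, 10 of them over the filter in the matched cells by themselves, with a median log2 ratio of 2.40. Top2a was at 148 against 25.2 CPM and 21.4 against 1.53 CPM (adjusted p = 0.001). In all 86 genes were higher, 0.840% of 10242, and 2 were lower, 0.0195%. Several ratios that no longer passed were close to those over all members. Cdkn1a was at log2 0.36 ± 0.11 (adjusted p = 0.38), against 0.43 over all members, Cdkn2c at 0.39 against 0.39, Cdkn2d at 0.53 against 0.52 and Rbl1 at 0.61 against 0.54. The DNA replication list went from 9 to 3 calls, Uhrf1 and Tk1 among the 3 and again over the filter only through the Cdkn2a cells, while its median, which includes them, went from 0.53 to 0.57. The prior degrees of freedom of the fit, which set how much spread is shared across genes, fell from 19.1 to 5.80, so that a lost call is not by itself a smaller difference. Clec4f was then at 2.05 to 2.23 CPM in all 4 sums. With cycling cells left out as well, a set chosen after seeing the data, 42 genes were higher (0.414% of 10144) and 40 lower (0.394%), 0.808% in all. Here, and with cycling cells alone left out, the prior degrees of freedom were infinite, so the spread behind these calls was wholly the shared one.

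**Figure D4:**
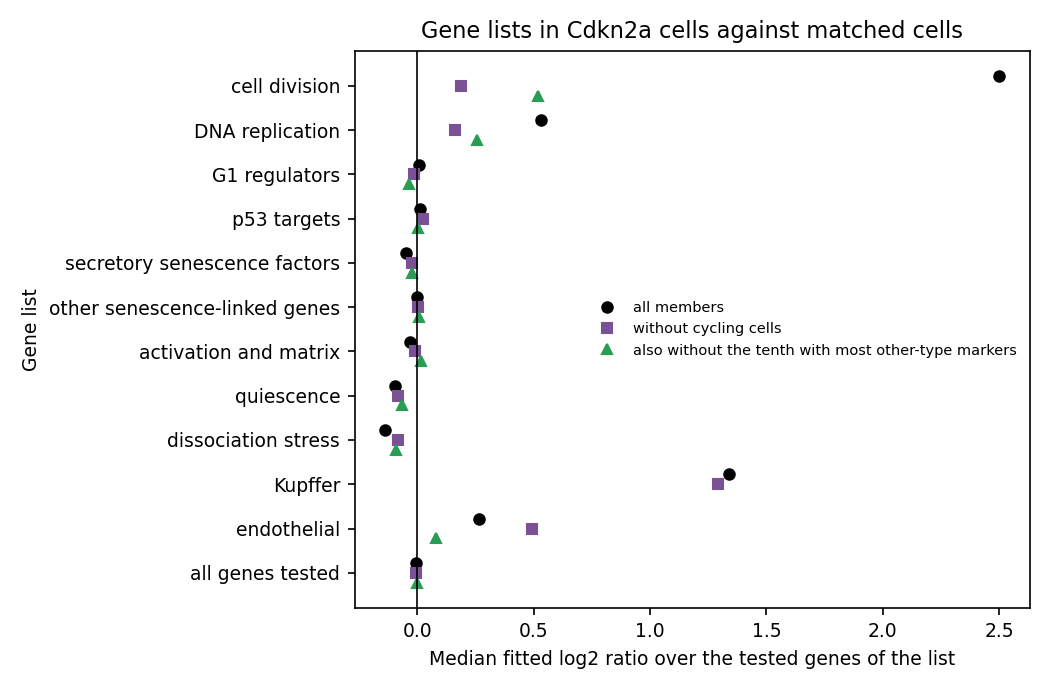
Median fitted log2 ratio, Cdkn2a cells over matched cells (horizontal axis), over the tested genes of each list (vertical axis), for all members (circles), without cycling cells (squares) and without both cycling cells and the tenth with the most markers of other cell types (triangles). Cell division goes from 2.50 over 16 genes to 0.19 over 1 gene and 0.52 over 2 (1 of which, Ccnb2, passed the filter only through the Cdkn2a cells), the Kupffer list has no gene left to test in the last set, and the G1, p53, secreted, activation and quiescence lists stay within 0.15 of 0.

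Of 45 lower genes that passed the naming rule the 12 smallest ratios were those of Fabp5 (log2 -0.78), Syn3 (-0.44), Jmjd8 (-0.43), Ereg (-0.34), Hs6st3 (-0.32), Rhbdd2 (-0.31), Hhip (-0.31), Nr4a3 (-0.30), Galnt14 (-0.30), Gnb5 (-0.28), Angpt1 (-0.27) and Fam180a (-0.26). Fabp5, a fatty acid binding protein, was at 20.6 against 39.9 CPM in p16-LRTD and 18.2 against 25.3 CPM in p16-Alb-LRTD. Without the tenth with the most other-type markers it was at 15.8 against 16.5 and 12.5 against 17.7 CPM (adjusted p = 0.55). Ereg, the EGF receptor ligand epiregulin, was at 63.9 against 80.7 CPM and 48.2 against 58.5 CPM, and still passed without those cells (log2 -0.31 ± 0.05, adjusted p = 0.047), while the other 11 of the 12 did not. Hhip, a decoy for hedgehog ligands, was at 81.0 against 110 CPM and 131 against 143 CPM, and Angpt1, the TIE2 ligand, at 96.4 against 119 and 130 against 147 CPM.

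The Cdkn2a cells were last compared between the genotypes, beside the matched cells. These are differences between 2 libraries, with no replicate. Col1a1 in Cdkn2a cells went from 2245 CPM with p16-LRTD to 518 CPM with p16-Alb-LRTD (log2 ratio -2.12, -2.16 to -2.08), and in matched cells it was -2.21 (-2.23 to -2.19). For Col3a1 the ratios were -1.78 and -1.79. Top2a was lower in p16-Alb-LRTD by a log2 ratio of -2.64 in Cdkn2a cells and -3.87 in matched cells, and Acta2 by -1.65 and -2.44. Cdkn1a was the other way, at 27.4 CPM with p16-LRTD and 47.4 CPM with p16-Alb-LRTD in Cdkn2a cells (log2 ratio 0.79, 0.61 to 0.97), and 1.26 (1.13 to 1.39) in matched cells. Cycling cells were 76 of 758 Cdkn2a cells in p16-LRTD and 7 of 536 in p16-Alb-LRTD, and 142 of 8092 and 13 of 6837 HSCs in all, while the share of cycling cells with a Cdkn2a UMI was 53.5% and 53.8%.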

How the data were processed

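The authors deposited counts, as raw UMIs of each gene in each barcode, for 2 libraries, made from 10x 3′ v3.1 kits with Cell Ranger 7.0.1 on mm10. Counts were used as deposited. The members and gene lists were chosen with earlier results of these data known. Barcodes were gated as given in the report. No doublet caller was run, so that the upper limits on genes and UMIs alone act on doublets. UMIs were summed per library over Cdkn2a cells and over 3 matched cells each, and tested with edgeR 4.0.16 (R 4.3.3, TMM scaling, mean of at least 5 CPM, library term, Benjamini-Hochberg adjustment at 0.05). Adjusted p-values in the report are from this fit unless another tool is named. In data simulated on 10401 genes for this comparison, all 50 genes changed at each of 1.5-, 2-, 3- and 0.5-fold were recovered and 7 of 10201 unchanged genes were called. The simulated counts had the same spread setting in every gene and no clumping of UMIs in a few cells. These rates therefore do not carry over to the calls in the report. Intervals were computed in SciPy 1.17.1, at the 95% level, and shares at 5000 UMIs are expectations over random thinning.

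Named genes are all members of the 16 lists and the 12 largest and 12 smallest ratios among called genes with a mean of at least 10 CPM, 1 direction in both libraries and counting intervals that leave out a ratio of 1 in each, without mitochondrial, ribosomal protein, haemoglobin, immunoglobulin and sex-linked genes and unnamed gene models. Counting at the 3′ end leaves overlapping or near-identical genes uncertain. Alternatives covered matching, membership, gates, limits, scaling, filters and DESeq2 1.42.0. The values of 2 genes of the lists are not reported here, and both stay in the counts of their lists.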

Additional observations from a re-analysis of the deposited data

Results flagged for a closer look

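For 6 genes the log2 ratio of Cdkn2a cells to matched cells had opposite signs in the 2 libraries, each with a counting interval that leaves out 0. The difference between the libraries was not tested, since each genotype had 1 library, and many genes were looked at.

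S100a6, a calcium-binding protein of fibroblasts, was at -0.08 in p16-LRTD and 0.65 in p16-Alb-LRTD. Id1, a BMP target, was at 0.25 and -0.32. Fn1, fibronectin, was at -0.04 and 0.10, both small. Lyz2, a macrophage lysozyme, was at -0.22 and 0.84, and Mfap4, a microfibril protein of portal fibroblasts, at -0.51 and 1.14. Sox9, a ductal factor, was at 0.95 and -0.46. For Mfap4, 5 Cdkn2a cells gave 60.0% of the UMIs in p16-LRTD and 75.0% in p16-Alb-LRTD, and for Sox9 53.6% and 52.2%. For S100a6 the shares were 18.2% and 57.1%. Fn1 was spread widely, with 4.44% and 5.88% of its UMIs in 5 cells. The opposite signs did not hold for some of these genes with other cells left out. Without the tenth of cells highest in other-type markers, Lyz2 was at 0.10 and -0.02, both with intervals that include 0. Without cycling cells as well, Id1 was at -0.36 and -0.25 and S100a6 at 0.22 and 0.65, while Mfap4 was still at -0.53 and 0.90.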

How the results depend on the processing

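No paired analysis was possible because a genotype was 1 library, so that the genotypes had no replicates to pair. Cdkn2a cells and matched cells were compared within each library, with library as a term. For calls, the main counts were 300 higher and 63 lower. Higher counts were 122 with 1 matched cell per member, 103 with membership set after thinning, 169 without cycling cells, 86 without the tenth with the highest other-type markers, 42 without both, 125 without upper limits, 171 with RLE scaling, 477 with no filter and 95 with DESeq2. Lower counts were 10 with 1 matched cell, 9 after thinning, 2 without the tenth, 40 without both, 132 at a gate of 10, 28 at 25, 30 at a mitochondrial limit of 10%, 0 without upper limits, 22 with RLE, 23 with library totals, 110 with no filter and 17 with DESeq2, so the lower calls depend on these choices. Under the alternatives in which they were tested, 0 of the 24 named genes were called in the other direction, and 12 did not pass with DESeq2.

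List medians (log2) moved as follows. With 1 matched cell it was G1 0.0271, p53 targets 0.0166, activation -0.012 and endothelial 0.47. With at least 2 Cdkn2a UMIs it was cell division 3.72, DNA replication 1.34, G1 0.14, p53 targets 0.12, secreted factors -0.13, activation -0.24, quiescence -0.23, dissociation -0.23, Kupffer 2.45 and endothelial 0.59. With membership set after thinning it was cell division 3.46, G1 0.088, p53 targets 0.0471, activation -0.0464, dissociation -0.061, Kupffer 2.34 and endothelial 0.0526. Without cycling cells it was cell division 0.19, DNA replication 0.16, G1 -0.0135, p53 targets 0.026, secreted factors -0.0214, activation -0.00971 and endothelial 0.49. Without the tenth it was activation -0.0117 and endothelial 0.0335. Without both it was cell division 0.52, DNA replication 0.26, G1 -0.0339, p53 targets 0.00153, secreted factors -0.025, activation 0.0153 and endothelial 0.0806. At a gate of 10 it was G1 0.0251 and endothelial 0.47. At a gate of 25 it was Kupffer 1.13. At the 10% limit it was p53 targets 0.0259. Without upper limits it was G1 0.0602, p53 targets 0.0193, secreted factors 0.0365, activation 0.0236, quiescence -0.15 and Kupffer 0.38. With library totals it was G1 0.0365, p53 targets 0.0396 and activation -0.0022. With no filter it was G1 -0.0221, p53 targets 0.00773 and activation -0.0475. At a mean of 1 CPM it was G1 -0.00559. With all non-members weighted it was G1 0.0289, p53 targets 0.0532, activation 0.0208 and Kupffer 1.60. In the libraries taken singly it was cell division 2.39 to 3.30, G1 0.0325 to 0.042, p53 targets 0.0223 to 0.0261, activation -0.0122 to 0.00946, quiescence -0.11 to -0.0446 and dissociation -0.15 to -0.062.

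The thinned share was 1.74% and 1.36% at 3000 UMIs and 5.38% and 4.33% at 10000 UMIs in p16-LRTD and p16-Alb-LRTD. The Col1a1 ratio between genotypes was -2.07 with RLE, -2.07 with TMM, -1.76 with at least 2 Cdkn2a UMIs, -2.21 without cycling cells and -2.196 without the tenth. Depth limits membership, since most Cdkn2a cells held 1 UMI and cells without one may express the gene.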

Other observations

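With cycling cells and the tenth with the most other-type markers both left out (chosen after seeing the data), 600 and 468 Cdkn2a cells remained, and 42 genes were higher and 40 lower of 10144 tested by edgeR, 0.414% and 0.394%. Of these, 22 and 21 had been called in the same direction with all members. Stmn1 was at 48.5 against 21.9 CPM in p16-LRTD and 11.2 against 8.63 CPM in p16-Alb-LRTD (log2 0.94 ± 0.08), and Tyms, the thymidylate synthase, at 11.6 against 6.37 and 6.39 against 5.45 CPM. Acta2 was at 78.0 against 62.2 and 19.1 against 13.5 CPM (log2 0.35 ± 0.06), and S100a6 at 158 against 136 and 26.5 against 16.8 CPM. C3, the central complement protein, was at 39.8 against 24.6 and 33.9 against 23.6 CPM (log2 0.60 ± 0.07). Saa3, an acute phase protein, had the largest ratio, at 72.6 against 2.48 and 8.12 against 2.61 CPM, but it passed the filter only through the Cdkn2a cells, and in the full set 5 Cdkn2a cells gave 97.3% of its UMIs in p16-LRTD. Alb, a hepatocyte marker that was not among the genes used to leave cells out, was also higher in this set, at 20.5 against 10.7 and 8.12 against 6.74 CPM (log2 0.70 ± 0.12, edgeR adjusted p = 9.2e-07), and its part in these calls was not tested. C3 was also carried by few cells, with 66.1% of its UMIs from 5 Cdkn2a cells in the full set of 1 library.

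The lower genes named here differed by little. Fos was at 1297 against 1422 CPM and 2114 against 2263 CPM (log2 -0.13 ± 0.02), Egr1 at -0.13, and 5 of the 15 dissociation genes were lower and 0 higher. Id1 was at 22.1 against 28.4 and 48.9 against 58.1 CPM (log2 -0.31 ± 0.06), and Sgk1, a kinase induced by glucocorticoids, was at -0.17. Cdkn1a was at 13.0 against 15.2 and 35.9 against 37.9 CPM (adjusted p = 0.67).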
